A study of Mus musculus with 9 samples.

Results

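The EGF receptor family and its ligands were followed in RNA-Seq libraries of NMuMG, an immortalized mouse mammary gland cell line of epithelial origin. The group was set by gene name. It holds the receptors *Egfr*, *Erbb2*, *Erbb3* and *Erbb4* and the ligand genes *Areg* (amphiregulin), *Ereg* (epiregulin), *Hbegf* (heparin-binding EGF-like growth factor), *Btc* (betacellulin), *Tgfa* (transforming growth factor alpha) and *Epgn* (epigen). These are 10 of the 52459 gene symbols in the files and 27 of the 131100 transcripts. All cells were untreated pools that carried a pBICEP-based vector stably and had been selected with G418. Mock cells carried the empty vector, EPR cells overexpressed the long noncoding RNA EPR (gene BC030870), and EPRSTOPE cells overexpressed a point mutant of it whose small open reading frame is closed by a stop codon, so that no peptide is made. Each condition had 3 libraries, and the labels do not say whether these came from separate pools, although the study's methods call them biological triplicates. The p-values measure the spread between these libraries. A difference between pools of transfectants cannot be told apart from a difference between the vectors.

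The family is a growth factor system of epithelia. Its ligands are made as membrane-anchored precursors, are cut from the cell surface by proteases, and bind receptors that pair with each other and switch on kinase signalling through RAS and ERK. In the mammary gland, amphiregulin and EGFR are best known for the growth of ducts. ERBB2 has no ligand of its own, ERBB3 has little kinase activity and relies on its partner, and ERBB4 is best known for lactation.

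*Epgn*, *Ereg*, *Areg* and *Btc* lie in this order on chromosome 5 within 375531 bases, in positions of the Gencode M21 annotation of GRCm38. The promoter windows of *Areg*, *Btc* and *Epgn* are shown because these neighbours include the ligands with the largest differences from mock cells and the one that was almost silent. They are RefSeq sequences of GRCm38.p6 from 250 bases before to 50 bases after the start site, at chr5:91139349-91139648 (plus strand), chr5:91402945-91403244 (minus strand) and chr5:91027267-91027566 (plus strand). Capitals mark matches on either strand to a cAMP response element (TGACGTCA), a TATA box (TATAAA), a GC box (GGGCGG) or the E-box bound by ZEB and SNAIL repressors (CACCTG).
Areg: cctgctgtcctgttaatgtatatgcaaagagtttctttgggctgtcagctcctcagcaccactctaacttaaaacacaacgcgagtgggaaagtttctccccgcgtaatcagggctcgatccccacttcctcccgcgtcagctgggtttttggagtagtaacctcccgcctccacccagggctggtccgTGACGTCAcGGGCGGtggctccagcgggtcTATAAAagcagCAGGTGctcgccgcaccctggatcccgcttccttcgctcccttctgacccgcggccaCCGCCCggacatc
Btc: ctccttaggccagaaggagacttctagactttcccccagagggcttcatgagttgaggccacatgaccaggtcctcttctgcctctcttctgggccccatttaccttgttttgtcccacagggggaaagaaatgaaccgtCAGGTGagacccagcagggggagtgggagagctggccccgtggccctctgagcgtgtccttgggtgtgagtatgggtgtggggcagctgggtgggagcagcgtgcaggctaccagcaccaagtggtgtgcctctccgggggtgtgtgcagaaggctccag
Epgn: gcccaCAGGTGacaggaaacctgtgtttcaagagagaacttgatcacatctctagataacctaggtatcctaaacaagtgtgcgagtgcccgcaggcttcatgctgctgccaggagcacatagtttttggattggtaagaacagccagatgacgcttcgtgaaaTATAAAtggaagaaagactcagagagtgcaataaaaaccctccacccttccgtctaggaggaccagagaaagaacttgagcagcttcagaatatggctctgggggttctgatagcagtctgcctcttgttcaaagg
The *Areg* window was the only 1 of the 7 member windows in the table to hold the cAMP response element, at position -61 from the start site, and 1.79% of all 32851 promoter windows hold it. *Areg* also held a TATA box at -31, as do 13.6% of all windows, GC boxes at -52 and 38, as 35.7% of windows have, and an E-box at -20, as 20.2% have. The capitals in *Btc* are an E-box at -110. *Epgn* had a TATA box at -86 and an E-box at -245, counted from a RefSeq start that lies downstream of its Gencode start at 91027464. Of the other windows, *Tgfa* held an E-box at -197 and GC boxes at -126 and -15, *Egfr* held a GC box at -9, and *Erbb2* and *Erbb4* held none of these letters. An AP-1 site (TGANTCA) was in none of the 7 windows and in 7.81% of all windows. *Erbb3*, *Ereg* and *Hbegf* were not looked at. These are matches of letters and not measured sites.

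The libraries held 5972457 to 11876435 estimated counts, and values below are CPM, counts scaled to a common library size, after TMM normalization. BC030870 was at 0 to 0.163 CPM in mock, 23.7 to 27.0 CPM in EPR and 3.8 to 4.74 CPM in EPRSTOPE libraries, so the mutant RNA lay below the wild-type RNA, and the stop codon and the level of the RNA cannot be told apart. The epithelial label did not hold in full for mock cells. Their libraries held the keratins *Krt8* (1989 to 2232 CPM) and *Krt18*, but only 0.311 to 1.16 CPM of the adhesion gene *Cdh1*, against 541.6 to 568.7 in EPR and 381.4 to 426.8 in EPRSTOPE libraries, and *Epcam* was at 0. Of 10 epithelial markers, 4 were at 0 in every mock library, and their summed level ran from 3693 to 4158 CPM in mock, 9502 to 10609 in EPR and 10688 to 11025 in EPRSTOPE libraries. Within that sum *Krt8* and *Krt18* weigh most, and the list as a whole ran the other way between the lines. In EPR against EPRSTOPE 3 markers were called higher and none lower. They were *Epcam* (3.63 and 0.11 CPM), *Krt7* (9.11 and 1.44) and *Krt19* (584.2 and 385.2). *Epcam* passed the filter for testing, 1 CPM in 3 libraries, only through the EPR libraries where it was high. The fibroblast list was mostly *Vim*, at 2634 CPM in mock, 1768 in EPR (called lower) and 3138 in EPRSTOPE cells (not called). *Pdgfra*, at 0 in mock, was called higher in both lines, with 1.19 CPM (EPR) and 1.3 CPM (EPRSTOPE). It passed the filter only through these lines. *Col1a1* was under 1 CPM in every library. Myoepithelial markers summed to 10.7 to 12.2 CPM in mock, 1.52 to 1.83 in EPR and 2.88 to 3.56 in EPRSTOPE libraries, which followed *Acta2* (10.1, 1.17 and 0.802 CPM), while *Krt14* was at 0.896, 0 and 2.32 CPM and was called lower in EPR and not called in EPRSTOPE. *Krt14* passed the filter through the EPRSTOPE libraries (1.38 to 3.22 CPM). With mock libraries at 0.651 to 1.09 CPM, the size of its fall in EPR is imprecise. The endothelial, leukocyte and adipocyte lists summed to at most 16.7, 4.58 and 1.52 CPM. The share of counts on mitochondrial genes was 1.18% to 1.39% in mock, 1.90% to 2.58% in EPR and 1.62% to 1.68% in EPRSTOPE libraries, without overlap. These markers and this share move with the vector, as the EGF family does, and their part in the results below was not tested. In RNA from whole cultures, fewer cells of a type and less RNA per cell cannot be told apart.

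The first question was how the family differed when EPR or its mutant was overexpressed. *Btc*, *Areg*, *Erbb3*, *Ereg*, *Tgfa* and *Egfr* were higher than in mock cells with either RNA, by 1.75-fold (*Egfr*) to 19.9-fold (*Btc*) in EPR cells and by 1.88-fold (*Egfr*) to 27.9-fold (*Btc*) in EPRSTOPE cells. Of the 8 tested members none was called lower in either comparison with mock, beside 12.9% and 12.4% of all tested genes. None was called higher in EPR than in EPRSTOPE cells, beside 6.86% of all tested genes. Among 8 genes such shares would give few calls, so this absence is not read as a trait of the family. In these directions no member had an unadjusted edgeR p under 0.05, and DESeq2 and limma also called 0. Without TMM the balance of all tested genes turns, with 1982 genes called higher and 2503 lower in EPRSTOPE against mock in place of 2400 and 1903, and with 2051 and 2357 in EPR against mock in place of 2337 and 1980. Between EPR and EPRSTOPE cells, *Areg* alone was called, 1.55-fold lower in EPR cells. A gene was called at an adjusted p under 0.01 (edgeR quasi-likelihood test on all 15371 genes with at least 1 CPM in 3 libraries, Benjamini-Hochberg method) where its log2 fold change also passed 0.5 in size.

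By this rule 6 of the 10 members were called higher in EPR than in mock cells, where 15.2% of all tested genes were called higher. In EPRSTOPE cells 6 were called higher than in mock cells, against 15.6% of all tested genes. In EPR against EPRSTOPE 1 was called lower, against 6.35% of all tested genes. The 8 members that passed the filter include *Erbb3*, which passed only through EPR and EPRSTOPE libraries, and *Btc*, which reached 1 CPM in 1 mock library. *Erbb4* and *Epgn* did not pass and were not tested. The median log2 fold change of the 8 tested members was 1.63 in EPR and 1.82 in EPRSTOPE cells against mock and -0.25 in EPR against EPRSTOPE, beside -0.01, -0.04 and 0.01 for all tested genes. Both comparisons with mock share the same 3 mock libraries.

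**Figure D1:**
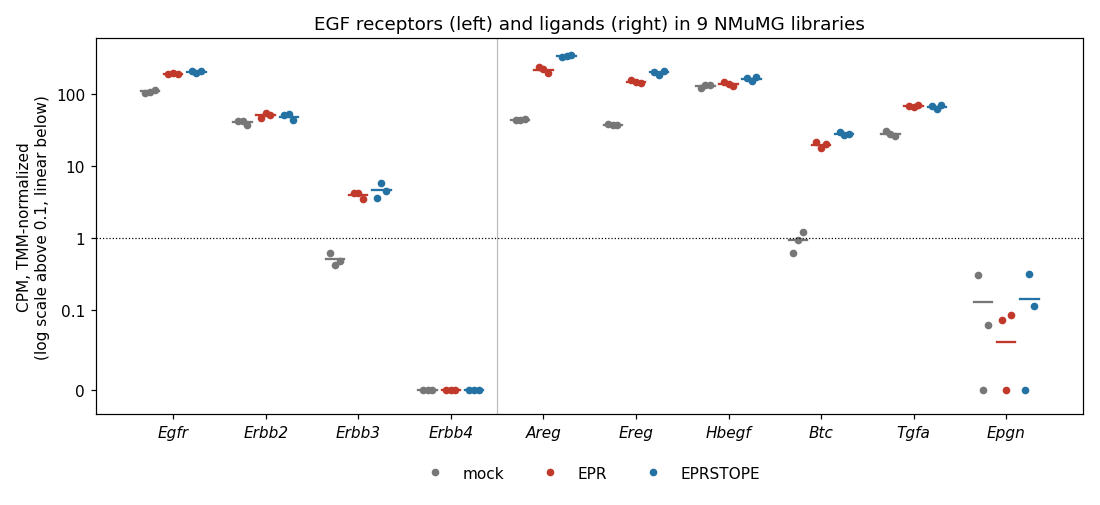
Levels of the 10 genes in 9 libraries, with receptors left of the grey line and ligands right of it. The y axis is TMM-normalized CPM, logarithmic above 0.1 and linear below, each point is a library, short bars are means of 3 libraries, and the dotted line is the 1 CPM filter. The mock points of *Btc* (0.621 to 1.22 CPM) lie far below those of EPR and EPRSTOPE, whereas *Hbegf* stays above 100 CPM in every library.

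Among the receptors, *Egfr* (ENSMUSG00000020122.16, chr11:16752203-16918158, plus strand) encodes the receptor that these ligands share. Its level was 103.8, 106.7 and 114.8 CPM in mock, 186.3, 196.4 and 186.6 CPM in EPR and 207.7, 196.1 and 209.2 CPM in EPRSTOPE libraries. Mock did not overlap with either overexpressing line, while EPR and EPRSTOPE overlapped. The log2 fold change against mock was 0.81 in EPR (SE 0.06, adjusted p = 3.8e-07) and 0.91 in EPRSTOPE cells (SE 0.06, adjusted p = 1.2e-07). Between EPR and EPRSTOPE it was -0.11, with a 95% confidence interval from -0.24 to 0.02. With counts rebuilt from TPM and transcript length, neither rise was called (log2 0.40, adjusted p = 0.24 for EPR, and 0.86, adjusted p = 0.019 for EPRSTOPE). In that setting short transcripts of the gene weigh more. *Egfr*-204, a processed transcript of 716 bases, was at 15.5, 11.3 and 12.7 TPM in mock libraries. It was at 12.4, 9.34 and 7.28 TPM in EPR and 7.92, 12.6 and 29.1 TPM in EPRSTOPE libraries. Its part in the lost calls was not tested.

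2 transcripts held most *Egfr* counts. *Egfr*-201 (10208 bases), the full receptor of 1210 residues, took 71.4% ± 2.58, 76.3% ± 2.09 and 72.2% ± 4.88 of the counts in mock, EPR and EPRSTOPE (SD, n = 3 each). *Egfr*-202 (2943 bases, 655 residues), a shorter coding form, took 19.5% ± 1.91, 18.8% ± 2.64 and 21.2% ± 4.86. The shares overlapped between conditions for *Egfr*-202, and those of *Egfr*-201 in EPR libraries lay just above those in mock. In TPM, which corrects a transcript's abundance for its length, *Egfr*-201 was at 4.82, 6.48 and 5.68 in mock, 11.0, 12.8 and 11.1 in EPR and 13.8, 12.7 and 9.59 in EPRSTOPE libraries, and so each overexpressing library lay above each mock library.

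*Erbb2* (ENSMUSG00000062312.5, chr11:98412470-98437716, plus strand) encodes the co-receptor without a ligand. It was at 42.1, 41.7 and 37.6 CPM in mock, 46.7, 53.7 and 50.4 CPM in EPR and 50.3, 52.3 and 43.3 CPM in EPRSTOPE libraries. The libraries did not overlap with mock, but the differences were small and were not called. The log2 fold change was 0.31 in EPR (SE 0.09, adjusted p = 0.013) and 0.27 in EPRSTOPE cells (SE 0.09, adjusted p = 0.031). With counts rebuilt from TPM and length the second was called, at 0.74 with an adjusted p of 0.0088. EPR and EPRSTOPE differed by 0.05, with an interval from -0.15 to 0.25. Only part of the reads went to a coding form. The coding *Erbb2*-201 took 43.9% ± 9.17 of the counts in mock, 47.3% ± 15.1 in EPR and 46.3% ± 14.9 in EPRSTOPE (SD, n = 3 each), and the processed *Erbb2*-202 took nearly all others.

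*Erbb3* (ENSMUSG00000018166.8, chr10:128567523-128589652, minus strand), a receptor for neuregulins that signals mainly through its partner, was the receptor with the largest difference. Its counts were 4, 4 and 6 in mock, 48, 34 and 37 in EPR and 21, 55 and 39 in EPRSTOPE libraries. This is 0.422 to 0.621 CPM in mock, 3.46 to 4.29 in EPR and 3.56 to 5.87 in EPRSTOPE. Mock was far below both, and EPR and EPRSTOPE overlapped. *Erbb3* rose by a log2 fold change of 2.96 in EPR (SE 0.34, adjusted p = 1.8e-05) and 3.20 in EPRSTOPE cells (SE 0.34, adjusted p = 9.3e-06), and since 3 counts are 0.244 to 0.466 CPM in the mock libraries, the size of these rises is imprecise. The difference between EPR and EPRSTOPE was -0.24, with a wide interval from -0.82 to 0.35. *Erbb4* (ENSMUSG00000062209.15, chr1:68032186-69108059, minus strand), which binds neuregulins and several of the ligands here, had 0 counts in all 9 libraries, which allows up to 0.244 to 0.508 CPM per library for counting error only.

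Among the ligands, *Areg* (ENSMUSG00000029378.5, chr5:91139599-91148432, plus strand) had the highest level per length in both overexpressing lines. It was at 43.3, 44.1 and 44.3 CPM in mock, 234.5, 219.1 and 193.0 CPM in EPR and 324.8, 331.4 and 342.8 CPM in EPRSTOPE libraries. The conditions did not overlap, and EPRSTOPE was the highest. *Areg* rose by a log2 fold change of 2.29 in EPR (SE 0.07, adjusted p = 3.3e-10, 4.91-fold) and 2.92 in EPRSTOPE cells (SE 0.08, adjusted p = 3.9e-11, 7.58-fold). EPR cells were below EPRSTOPE cells by a log2 fold change of -0.63 (SE 0.07, adjusted p = 3.3e-05), the only called difference of the family between these lines. Its call was lost when the fit was made on transcripts, with a log2 fold change of -0.60 and an adjusted p of 0.01. The promoter window printed above, with letters that match a cAMP response element and a TATA box, belongs to this gene. The part of these letters in the differences was not tested.

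*Ereg* (ENSMUSG00000029377.5, chr5:91074622-91093646, plus strand), whose product binds EGFR and ERBB4, starts upstream of *Areg*, and the gap between the genes is 45952 bases. It was at 38.1, 36.7 and 37.2 CPM in mock, 155.6, 145.2 and 142.2 CPM in EPR and 204.0, 180.6 and 211.4 CPM in EPRSTOPE libraries. The order of the 3 conditions was that of *Areg*, without overlap. *Ereg* rose by a log2 fold change of 1.99 in EPR (SE 0.07, adjusted p = 9.4e-10, 3.96-fold) and 2.41 in EPRSTOPE cells (SE 0.07, adjusted p = 1.5e-10, 5.32-fold). EPR was below EPRSTOPE by -0.43 (SE 0.07, adjusted p = 0.00056), which is inside the fold limit and was not called.

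*Btc* (ENSMUSG00000082361.6, chr5:91357261-91402994, minus strand), which also binds EGFR and ERBB4, lies 208828 bases beyond *Areg*. It was nearly silent in mock cells, with 4, 9 and 15 counts or 0.621, 0.95 and 1.22 CPM. In EPR libraries it was at 21.7, 17.7 and 19.9 CPM and in EPRSTOPE libraries at 29.8, 26.6 and 27.4 CPM. No library of one condition reached into another. *Btc* rose by a log2 fold change of 4.31 in EPR (SE 0.19, adjusted p = 3.6e-09) and 4.81 in EPRSTOPE cells (SE 0.18, adjusted p = 1.1e-09). The difference of EPR from EPRSTOPE was -0.49 (SE 0.13, adjusted p = 0.011) and was not called. The coding *Btc*-201 took 88.2% ± 2.73 of the counts in EPR and 89.8% ± 5.32 in EPRSTOPE (SD, n = 3 each), but from 31.5% to 87.4% in mock libraries, where few counts were there to divide.

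*Epgn* (ENSMUSG00000035020.11, chr5:91027464-91035215, plus strand), the remaining ligand of the cluster, had 2, 0 and 1 counts in mock, 1, 0 and 1 in EPR and 0, 3 and 1 in EPRSTOPE libraries. It was thus at or under the floor of 3 counts everywhere, and any difference was not detectable at this depth. The end of *Epgn* and the start of *Ereg* are 39406 bases apart.

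*Tgfa* (ENSMUSG00000029999.14, chr6:86195223-86275719, plus strand), a ligand of EGFR alone, was at 30.3, 27.9 and 26.5 CPM in mock, 67.7, 65.5 and 69.6 CPM in EPR and 67.1, 61.0 and 70.4 CPM in EPRSTOPE libraries. Unlike *Areg*, *Ereg* and *Btc*, it had EPR and EPRSTOPE libraries in the same range. *Tgfa* rose by a log2 fold change of 1.27 in EPR (SE 0.08, adjusted p = 8.1e-08, 2.41-fold) and 1.23 in EPRSTOPE cells (SE 0.08, adjusted p = 9.3e-08, 2.35-fold). The lines differed by 0.03, with an interval from -0.13 to 0.20. *Tgfa*-201 took at least 89.4% of its counts in each library.

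*Hbegf* (ENSMUSG00000024486.5), on chromosome 18, encodes a ligand of EGFR and ERBB4 and was, beside *Areg*, one of the more abundant ligand RNAs of mock cells. It was at 119.3, 131.7 and 131.1 CPM in mock, 145.5, 137.3 and 128.4 CPM in EPR and 168.9, 149.4 and 172.9 CPM in EPRSTOPE libraries. EPR overlapped with mock, and EPRSTOPE lay above both. The log2 fold change against mock was 0.11 in EPR (interval -0.06 to 0.27, adjusted p = 0.28) and 0.36 in EPRSTOPE cells (SE 0.08, adjusted p = 0.0016). Neither was called, the second because it lay inside the fold limit. With counts rebuilt from TPM and length it was called, at 0.58 with an adjusted p of 0.0064. EPR against EPRSTOPE gave -0.26 (SE 0.07, adjusted p = 0.022).

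Libraries of a pair of conditions did not overlap for 7 members higher in EPR than in mock cells, where 28.9% of all tested genes were higher without overlap. For EPRSTOPE against mock all 8 tested members were higher without overlap, against 28.2% of all tested genes. Both counts include *Erbb3*, which passed the filter only through EPR and EPRSTOPE libraries, so the filter favoured this direction for it. They also include *Btc*, which reached 1 CPM in only 1 mock library. In EPR against EPRSTOPE, *Areg*, *Ereg*, *Btc* and *Hbegf* were lower in EPR without overlap, against 22.2% of all tested genes. The exact permutation test of single genes gave p = 0.1 (two-sided) in each of these cases, which is the smallest that 3 against 3 libraries allow.

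**Figure D2:**
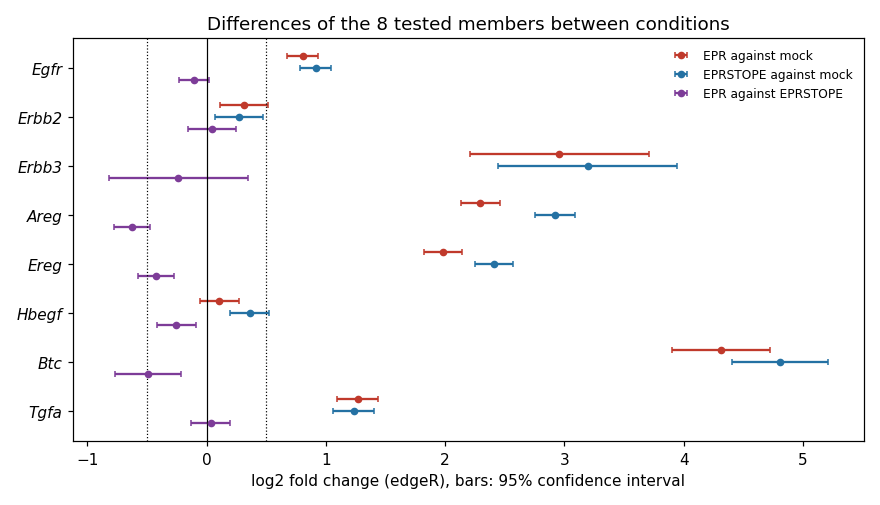
Differences of the 8 tested genes in each comparison. The x axis is the log2 fold change of the edgeR fit, bars are 95% confidence intervals and dotted lines are the fold limits of 0.5. *Btc* is farthest to the right (4.31 and 4.81 against mock), and the EPR against EPRSTOPE points of *Areg*, *Ereg*, *Btc* and *Hbegf* are left of 0.

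Levels of different genes were set side by side per length, as TPM summed over transcripts of at least 1000 bases. With the short transcripts included, *Egfr* would be at 33.2 to 38.8 TPM in mock, 40.2 to 41.8 in EPR and 40.1 to 84.1 in EPRSTOPE libraries, which overlaps with *Areg* in mock and lies above *Ereg* in EPR. In mock cells *Hbegf* came first with 47.0 ± 6.39 TPM (SD, n = 3) and *Areg* second with 40.2 ± 3.22, and their libraries overlapped. *Egfr* (11.7 ± 1.15 TPM) lay below, followed by *Ereg* (7.2 ± 0.613), *Erbb2* (6.8 ± 0.943) and *Tgfa* (4.77 ± 0.619), of which *Ereg* and *Erbb2* overlapped. *Btc* (0.205 ± 0.132 TPM), *Erbb3* (0.0645 ± 0.0078) and *Epgn* (0.0403 ± 0.0396) closed the order, each overlapping with the next, above *Erbb4* at 0.

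In EPR cells *Areg* was first with 176.7 ± 23.8 TPM, before *Hbegf* (51.4 ± 5.21), *Ereg* (30.4 ± 2.48), *Egfr* (22.3 ± 3.4), *Tgfa* (12.4 ± 0.891), *Erbb2* (8.95 ± 0.949), *Btc* (5.39 ± 0.195) and *Erbb3* (0.553 ± 0.0971). No neighbours down to *Erbb3* overlapped. In EPRSTOPE cells the order was the same, from *Areg* (285.1 ± 41.9 TPM), *Hbegf* (62.4 ± 5.25), *Ereg* (41.3 ± 4.04) and *Egfr* (25.2 ± 5.79) to *Tgfa* (12.1 ± 1.62), *Erbb2* (8.9 ± 2.3), *Btc* (7.84 ± 1.6) and *Erbb3* (0.662 ± 0.249). *Tgfa* overlapped with *Erbb2* there, and *Erbb2* with *Btc*.

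The ligands together were at 91.0 to 111.4 TPM in mock, 239.4 to 298.7 in EPR and 377.8 to 464.6 in EPRSTOPE libraries, and the receptors at 17.1 to 20.2, 28.4 to 36.7 and 26.3 to 42.8 TPM. Over all transcripts the receptor sums were 40.9 to 45.5, 49.2 to 54.5 and 52.3 to 93.8 TPM. *Areg* made up 40.6% ± 1.36 of the ligand TPM in mock, 63.9% ± 1.41 in EPR and 69.6% ± 2.96 in EPRSTOPE (SD, n = 3 each). *Hbegf* went the other way as a share, with 47.2% ± 1.71, 18.6% ± 0.436 and 15.4% ± 1.29. These shares are of RNA and say nothing of ligand at the surface.

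**Figure D3:**
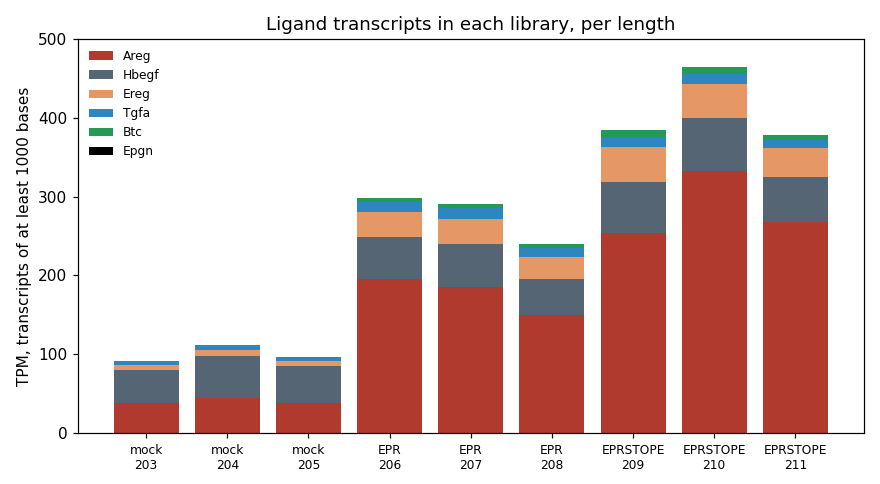
Ligand RNA in each library, named by condition and library number. Each bar stacks the TPM of the ligands over transcripts of at least 1000 bases, on a y axis that starts at 0. *Areg* and *Hbegf* are of like height in mock libraries, and *Areg* makes up at least 62.6% of each EPR and EPRSTOPE bar.

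Since *Ereg*, *Areg* and *Btc* are neighbours, the genes around them were examined. Within 1000000 bases on either side of *Areg*, 21 other genes were tested. With EPR against mock 7 were called higher and 1 lower, beside 15.2% and 12.9% of all tested genes. In EPRSTOPE against mock 6 were higher and 0 lower by edgeR, beside 15.6% and 12.4%. In that lower direction 3 had an unadjusted edgeR p under 0.05, and DESeq2 and limma also called 0. The median log2 fold change of the 21 genes was 0.16 in EPR and 0.13 in EPRSTOPE cells, beside -0.02 and -0.06 for all tested genes of the chromosome. Among them *Rassf6*, named after its values were seen, rose by log2 fold changes of 6.03 (EPR) and 5.28 (EPRSTOPE). *Rassf6*, *Ppbp*, *Cxcl15*, *Gm1045* and *Gm19619* stayed under 1 CPM in every mock library. They passed the filter only through overexpressing libraries. On the *Epgn* side, the metabolic enzyme gene *Mthfd2l* was at 22.5, 19.9 and 19.9 CPM (means of mock, EPR and EPRSTOPE) and was not called. On the *Btc* side, *Parm1*, a membrane mucin-like gene, rose from a mock level of 42.2 ± 3.99 CPM to 97.9 ± 2.24 with EPR and 169.5 ± 17.3 with EPRSTOPE (SD, n = 3 each), and EPR was lower than EPRSTOPE by -0.79 (adjusted p = 2.3e-05). Between *Areg* and *Btc*, the noncoding *Gm19619* went from 0.627 to 1.73 and 1.92 CPM and was called in EPRSTOPE only (adjusted p = 0.013 for EPR and 0.0085 for EPRSTOPE). *Gm19610*, an antisense gene that overlaps the start of *Ereg*, was the called fall, from 2.6 ± 0.802 CPM in mock to 0.439 ± 0.393 in EPR (adjusted p = 0.0055), and was at 1.01 ± 0.325 in EPRSTOPE. It passed the filter through the mock libraries (1.71 to 3.26 CPM), and no EPR library reached 1 CPM. Whether the authors' counting used strand is not given in the sources used here, so reads where it overlaps *Ereg* cannot be divided with certainty.

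**Figure D4:**
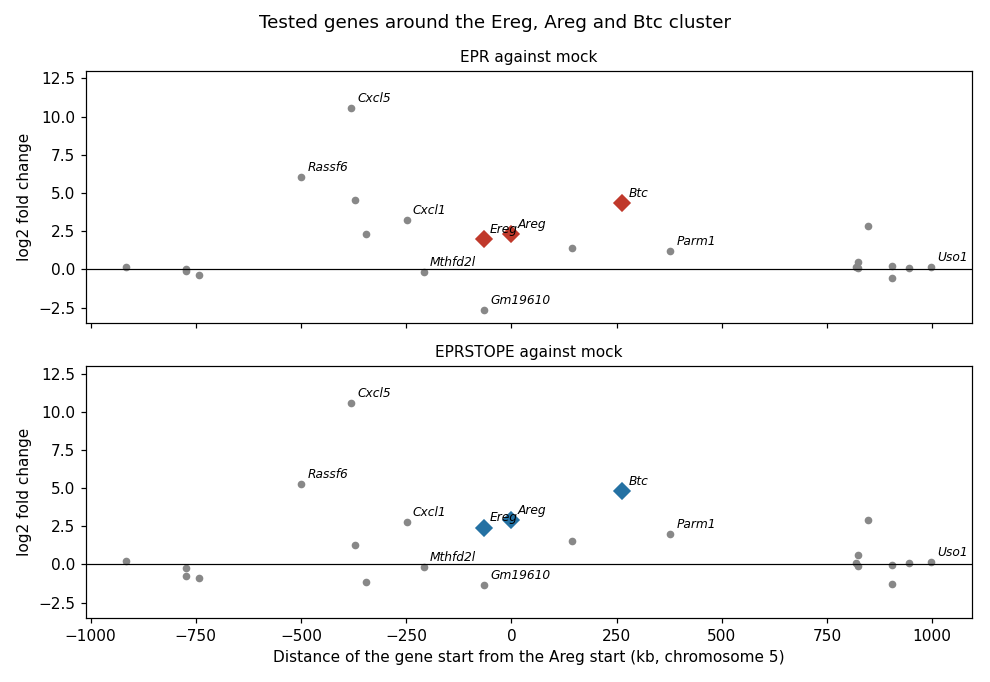
Genes around the *Ereg*, *Areg* and *Btc* cluster. The x axis is the distance of each tested gene's start from the *Areg* start in kb, the y axis is the log2 fold change against mock (EPR above, EPRSTOPE below), and diamonds are the 3 ligand genes. *Mthfd2l* lies at -0.18 in both panels, between the ligands and the higher *Cxcl1*.

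The other members stand alone. The nearest gene above *Erbb2*, *Grb7*, encodes an adaptor that binds ERBB2 and lies 8678 bases away. It was at 0 to 0.311 CPM in mock, 14.2 to 15.8 CPM in EPR and 0.169 to 0.748 CPM in EPRSTOPE libraries, so it was high in EPR cells only among these libraries. It was called higher in EPR than in mock (adjusted p = 2e-07) and than in EPRSTOPE cells (adjusted p = 2e-06), having passed the 1 CPM filter only through the EPR libraries, but not in EPRSTOPE against mock (adjusted p = 0.069). Next to *Tgfa*, *Add2*, a membrane skeleton gene, fell from 158.3 ± 7.98 to 44.9 ± 3.49 and 34.3 ± 4.82 CPM. Next to *Erbb3*, *Pa2g4*, whose product binds ERBB3, was lower in EPR cells (269.9 ± 8.07 CPM in mock and 183.5 ± 11.1 in EPR, adjusted p = 9e-06) and was not called in EPRSTOPE (221.8 ± 6.22 CPM). The neighbours of *Hbegf*, *Ankhd1* and *Pfdn1*, were not called in any comparison. Nor were *Pgap3* and the overlapping *Mien1* at *Erbb2*, *Rps26* at *Erbb3*, *Lancl1* at *Erbb4* or *Gm10443* at *Tgfa*. On the other side of *Erbb4*, *Ikzf2* fell from 9.78 ± 0.361 CPM in mock to 4.76 ± 1.3 (EPR) and 1.44 ± 0.231 (EPRSTOPE), with EPR above EPRSTOPE (log2 fold change 1.74, adjusted p = 0.00046). Next to *Egfr*, *Gm12663* was at 5.06 to 6.68 CPM in mock libraries and at 0 in all others, and was called lower in both lines (adjusted p = 2.7e-05 and 3.7e-05), having passed the filter only through mock.

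For each tested member, the 3 genes with the most similar log2 CPM over the 9 libraries were listed, as a description in which the points share libraries and conditions. *Areg* was nearest to *Slpi* (Pearson r = 0.999), *Pdzrn3* and *Sprr2h*, and *Ereg* to *Sprr2h* (r = 0.998), *Gm12346* and *Sh3rf2*. *Btc* was nearest to *Iqgap2* (r = 0.998), *Eva1c* and *Mmp14*, and *Tgfa* to *Endod1* (r = 0.998), *Vamp7-ps* and *Dlx3*. *Egfr* was nearest to *Myo1d* (r = 0.996), *Commd3* and *Plat*, and *Erbb3* to *Chd8* (r = 0.995), *Rhobtb2* and *Arf3*. *Hbegf* and *Erbb2*, which differed least, had lower leading values, 0.968 for *Plin2*, before *Rcn2* and *Xpnpep2*, and 0.964 for *Nthl1*, before *Tbc1d17* and *Samd14*. Each value was picked as the highest among 15370 genes, and r takes no account of the size of a difference. *Slpi* rose by a log2 fold change of 8.69 in EPR cells against mock, beside 2.29 for *Areg*. *Slpi*, *Pdzrn3*, *Sprr2h*, *Sh3rf2*, *Vamp7-ps* and *Dlx3* passed the filter only through overexpressing libraries.

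The genes around the receptors were taken from 6 lists with 74 genes, 69 of them tested. In EPR against mock 18 were called higher and 5 lower, which is 33.3% of those tested beside 28.1% of all tested genes. In EPRSTOPE against mock 22 were higher and 8 lower, 43.5% beside 28.0%, and in EPR against EPRSTOPE 5 were higher and 8 lower, 18.8% beside 13.2%. The median log2 fold changes were 0.08, 0.27 and -0.10.

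Of the 11 genes for ligand shedding and transport, 9 were tested. In EPR cells 5 were higher and 1 lower than in mock cells, and in EPRSTOPE cells 6 higher and 1 lower. These are 66.7% and 77.8% of those tested, beside 28.1% and 28.0% of all tested genes. *Rhbdf2*, which encodes iRhom2, the carrier of the sheddase ADAM17, rose from 13.6 CPM to 73.6 with EPR (log2 fold change 2.44) and 35.9 with EPRSTOPE (1.40). *Adam17* itself, named after its values were seen, was called higher in EPRSTOPE (0.623) and was not called in EPR cells (0.455). The sheddases *Adam10* (0.77 and 0.66) and *Adam15* (0.76 and 0.81) rose in both, as did *Rhbdl2*, a protease that cuts EGF family precursors inside the membrane (1.06 and 0.62). *Adam12*, which can release HB-EGF, was the list's fall, from 74.0 CPM to 0.766 with EPR (-6.51) and 5.99 with EPRSTOPE (-3.60). *Rhbdf2* and the iRhom partner *Frmd8* were higher in EPR than in EPRSTOPE cells (1.03 and 0.80), and *Adam12* was lower (-2.92).

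Receptor inhibitors were 12, with 11 tested. Those called against mock were 36.4% of the tested in EPR and 45.5% in EPRSTOPE, beside 28.1% and 28.0% of all tested genes. In EPR cells 3 were higher and 1 lower than in mock, and in EPRSTOPE cells 5 higher and 0 lower (edgeR; 1 lower at an unadjusted p under 0.05, and 0 by DESeq2 or limma). *Lrig1*, which lowers EGFR family receptors at the surface, rose from 101.6 CPM to 257.3 with EPR and 245.4 with EPRSTOPE (log2 fold changes 1.34 and 1.27). *Errfi1*, which encodes the kinase inhibitor MIG6, rose from 134.3 to 218.3 and 258.9 CPM (0.70 and 0.95), and *Socs3*, a cytokine signal inhibitor, rose from 31.3 to 52.9 and 71.5 CPM (0.75 and 1.19). *Cbl*, a ubiquitin ligase that sends EGFR to degradation, fell in EPR cells from 61.4 to 37.7 CPM (-0.70) and was not called in EPRSTOPE cells (44.6 CPM, -0.45). *Socs5* and *Cblb* were lower in EPR than in EPRSTOPE cells (-0.71 and -0.70).

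The surface partners were 5, with 4 tested, and 2 were higher in EPR and 3 higher and 1 lower in EPRSTOPE cells against mock. Called genes were thus 2 of the 4 tested in EPR and all 4 in EPRSTOPE cells. Among all tested genes 28.1% and 28.0% were called. *Cd9*, a tetraspanin that binds the HB-EGF precursor, rose by 0.97 and 0.81, and the proteoglycan *Sdc1* by 0.66 and 1.25 on the log2 scale. *Cd44*, an adhesion receptor that can carry HB-EGF, rose in EPRSTOPE cells from 426.0 to 867.6 CPM (1.03) and was at 522.5 CPM in EPR cells without a call. *Muc1*, a mucin that binds EGFR family receptors, fell in EPRSTOPE cells from 20.7 to 12.7 CPM (-0.69) and was at 23.8 CPM in EPR cells. Between the lines, *Muc1* was higher (0.89) and *Cd44* (-0.73) and *Sdc1* (-0.59) were lower in EPR.

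Of the 24 adaptors and kinases, 2 were higher and 1 lower than mock in each line, which is 12.5% of them, beside 28.1% and 28.0% of all tested genes. *Shc1*, the adaptor that links the receptors to RAS, rose from 88.3 to 224.5 and 192.3 CPM (log2 fold changes 1.35 and 1.12), *Eps8*, an EGFR substrate, rose by 0.62 and 1.06, and *Braf* fell by 0.58 and 0.81.

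Of 17 ERK feedback and target genes, 6 were higher and 2 lower in EPR and 6 higher and 3 lower in EPRSTOPE cells than in mock. These are 47.1% and 52.9% of them, beside 28.1% and 28.0% of all tested genes. *Dusp6*, a phosphatase of ERK that ERK induces, rose from 51.3 to 130.8 and 147.4 CPM (log2 fold changes 1.35 and 1.52), and the early response gene *Ier3* rose from 117.8 to 289.0 and 365.0 CPM (1.29 and 1.63). *Dusp4* rose in EPR cells (0.64) and *Fos* in EPRSTOPE cells from 1.67 to 8.02 CPM (2.21), with a called rise in EPR cells too (1.38). *Etv4*, an ETS factor, fell from 25.6 to 17.7 and 7.01 CPM (-0.53 and -1.86), and *Spred2* fell in EPR cells (-0.62, adjusted p = 0.0089), with the same fold change in EPRSTOPE cells at the limit and not called (-0.62, adjusted p = 0.01). *Spry1* (-1.21) and *Dusp5* (-0.50), which are also feedback inhibitors, fell in EPRSTOPE cells. The list's genes thus moved in both directions. Between the lines *Etv4* (1.33) and *Spry1* (0.94) were higher and *Egr1* (-1.45) and *Spry2* (-0.83) lower in EPR.

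Of the other ERBB ligands, 4 of 5 were tested and 0 were called in EPR against mock by edgeR, DESeq2 or limma, with 2 lower at an unadjusted edgeR p under 0.05. Among all tested genes 28.1% were called in EPR and 28.0% in EPRSTOPE against mock. In EPRSTOPE cells 2 fell, *Nrg1*, a neuregulin that binds ERBB3 and ERBB4 (75.9 to 49.9 CPM, log2 fold change -0.60, with 55.3 CPM in EPR cells), and *Nrg2* (3.17 to 0.43 CPM, -2.99), which was named after its values were seen. *Egf* itself was low throughout, at 1.94, 3.05 and 2.09 CPM in mock, EPR and EPRSTOPE cells.

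**Figure D5:**
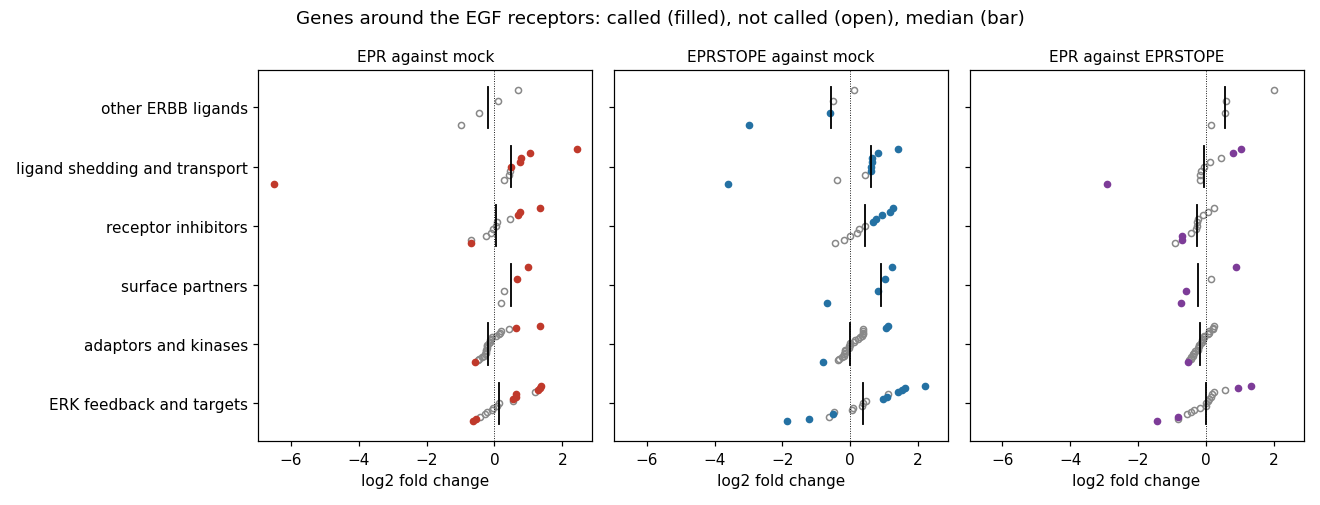
Genes of the 6 lists in the 3 comparisons. Each point is a tested gene at its log2 fold change, filled where called and open where not, spread vertically within its list for legibility, and the black bars are list medians. *Adam12* is the point near -6.51 in EPR against mock, and most adaptors and kinases are open points near 0.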

How the data were processed

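Per the labels, total RNA of the 9 libraries was prepared with a stranded TruSeq kit and sequenced as pairs of 75 bases. The submitters' processing notes name bcl2fastq 2.0 and kallisto 0.43.1. The authors deposited, per Gencode M15 transcript the unscaled estimated count and the TPM, which the authors had scaled by effective length, so that only TPM compares levels between genes. The length columns deposited by the authors were used for the TPM-based counts.

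Estimated counts were summed by gene symbol and rounded. edgeR 4.0.16 (R 4.3.3; TMM, quasi-likelihood F test, 1 factor of 3 levels, all 9 libraries, Benjamini-Hochberg adjustment) was run on 15371 genes that reached 1 CPM in 3 or more libraries. Calls needed an adjusted p under 0.01 with a log2 difference of over 0.5. The study's methods give these limits for transcripts fitted with limma, and its figure on the overlap of EPR and EPRSTOPE names stricter ones. Numbers of called genes here are thus not comparable with those of the study. An exact permutation test served for single genes, and similarity was Pearson's r of log2(CPM + 0.5). At this depth 3 counts are 0.244 to 0.508 CPM per library. No 2 libraries of a condition agreed within sampling noise (chi-square per degree of freedom at least 4.70). The edgeR step was tested on simulated data. Alternatives used DESeq2 1.42.0, limma 3.58.1 with voom, other normalizations, filters, counts, thresholds and features, and each library left out.

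All members were named. From each list up to 3 called genes with the largest rise and fall and a mean of at least 5 CPM were named, with the genes next to members and the 3 most similar to each. The members, lists and markers were chosen with earlier results of these data known. Positions came from Gencode M21 on GRCm38 and promoters from RefSeq. The remaining steps used matplotlib 3.10.9, scipy 1.17.1, numpy 2.4.6 and pandas 2.3.3 under Python 3.11.15.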

Additional observations from a re-analysis of the deposited data

Results flagged for a closer look

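*Areg* differed between the cells overexpressing EPR and those overexpressing its stop-codon mutant by a log2 fold change of -0.63 (edgeR, adjusted p = 3.3e-05), a test of the difference between the responses of both lines against the same mock libraries. It was lower in each of the 3 EPR libraries than in each of the 3 EPRSTOPE libraries. The level of BC030870 RNA also differed between these lines (24.9 and 4.24 CPM), and its part in the difference was not tested. No other member was called in that comparison.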

How the results depend on the processing

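Over 20 alternative settings, 455 of 474 log2 fold changes of members kept their direction and their call, 8 gained a call, 6 lost one and 5 turned in direction. The numbers of members called against mock were 4 to 7 in EPR and 4 to 8 in EPRSTOPE cells, and 6 in both whichever library was left out. For EPR against EPRSTOPE the 1 called member became 4 with an adjusted p limit of 0.05 and no fold limit, and 0 with a log2 limit of 1 or with transcripts in place of genes. With counts rebuilt from TPM and length, *Erbb2* and *Tgfa* turned to -0.038 and -0.108 in EPR against EPRSTOPE. *Erbb2* also turned there without EPR library 207 (-0.003) or EPRSTOPE library 211 (-0.034), within a range up to 0.105 when a library was left out, and *Tgfa* without EPRSTOPE library 210 (-0.024), within a range up to 0.082. None of these was called, and the cause was not tested.

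Among all tested genes, the 4317, 4303 and 2031 called for EPR and for EPRSTOPE against mock and between these lines became 7479, 7444 and 4636 at the looser limit, 2297, 2374 and 1001 at the stricter one, and 1548, 1731 and 343 for transcripts. Among the listed genes, 23, 30 and 13 became 44, 49 and 35, then 8, 16 and 4, then 11, 12 and 1. TPM-based counts gave 904 for all genes and 8 for the lists in EPR against EPRSTOPE. Leaving out a library gave 3945 to 4349, 3935 to 4243 and 1718 to 2013 for all genes, 6 to 6, 6 to 6 and 1 to 1 for members, and 18 to 23, 28 to 32 and 11 to 14 for the lists. Library totals without TMM moved the median of all genes in EPRSTOPE against mock from -0.04 to -0.16. *Erbb3* and *Btc* gave no value with at least 10 counts in every library. No paired analysis was possible because the library numbers 203 to 211 are each used once and no number is shared between conditions.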

Other observations

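In the region of the *Areg* cluster, 2 chemokine genes upstream of *Epgn*, *Cxcl5* and *Cxcl1*, were also called higher in both overexpressing lines (named after their values were seen). *Cxcl5*, a ligand of neutrophil receptors, had 1.83 ± 0.831 CPM in mock libraries, 2714.9 ± 52.7 with EPR and 2713.1 ± 112.3 with EPRSTOPE (SD, n = 3 each). *Cxcl1*, of the same family, was at 87.9 ± 14.9, 821.7 ± 61.4 and 600.8 ± 34.9 CPM. *Ppbp* (0.193, 4.53 and 0.471 CPM) and *Cxcl15* (0.614, 3.01 and 0.255 CPM) were called higher in EPR cells against mock and against EPRSTOPE, were not called in EPRSTOPE against mock, and passed the 1 CPM filter only through the EPR libraries. *Cxcl2*, *Cxcl3* and *Pf4* were not tested, with means under 0.5 CPM in each condition. Around *Egfr*, the antisense *Egfros* was at 1.79, 3.87 and 3.04 CPM and *Eldr* at 3.14, 1.67 and 1.22 CPM in mock, EPR and EPRSTOPE, and neither was called, whereas *Gm12663* on the other side of *Egfr* was called lower in both lines.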
